A study of Mus musculus with 8 samples.

Results

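Counts of 8 genes of the voltage-gated sodium channel and HCN channel families were compared between primary motor cortex (M1) treated with *Fezf2 shRNA* and M1 treated with *non-silencing shRNA*. The members were chosen by name, not by their values: *Scn1a*, *Scn3a* and *Scn8a*, *Scn2b*, *Scn3b* and *Scn4b*, and *Hcn2* and *Hcn4*, which are 8 of the 38031 genes that the count table and its annotation share. Male Swiss Webster mice were injected in M1 at P21 to P25 with a lentivirus in which a rat Synapsin I promoter, active in neurons, drives mCherry together with an shRNA in mir-30 flanks. Both groups carried this vector, and the treatments differed in the shRNA, which was directed against *Fezf2*, a transcription factor of layer 5 projection neurons, or was a non-silencing control. M1 was dissected by its mCherry signal at P49 to P53 with all layers and the meninges, so that each sample held transduced and untransduced neurons and other cells. Total RNA of 4 *Fezf2 shRNA* and 4 *non-silencing shRNA* (control) samples was sequenced, 1 library per tissue sample, and nothing in the labels says that the samples came from separate mice, so that p-values measure the spread between these samples.

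Voltage-gated sodium channels carry the inward current of the action potential. The pore is formed by a single large alpha subunit, which here is Nav1.1 (*Scn1a*), Nav1.3 (*Scn3a*) or Nav1.6 (*Scn8a*), and beta subunits bind the pore, change its gating and link the channel to the cell surface and to other cells. Nav1.1 is known from fast-spiking interneurons, Nav1.3 is highest before birth, and Nav1.6 is the main channel of the distal axon initial segment and the nodes of Ranvier in adult neurons. HCN channels open on hyperpolarization, conduct sodium and potassium and carry the current known as Ih, which is prominent in layer 5 pyramidal neurons. HCN2 and HCN4 are both strongly modulated by cyclic AMP, and HCN4 is best known as the pacemaker channel of the heart and as an abundant channel of thalamic neurons.

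A stretch of 60 coding bases of the HCN channels is shown because the members resemble each other there, which bears on how reads can be told apart. It holds the codons, in capitals, of the selectivity filter of the pore (GRCm38, GENCODE M21). It lies in exon 4 of 9 of *Hcn2* (chr10:79728929-79728988, plus strand) and in exon 4 of 8 of *Hcn4* (chr9:58855561-58855620, plus strand).
Hcn2: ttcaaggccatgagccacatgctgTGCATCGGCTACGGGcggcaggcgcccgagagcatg
Hcn4: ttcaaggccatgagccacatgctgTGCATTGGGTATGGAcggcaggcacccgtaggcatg

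The HCN windows differed at 8 of 60 bases, 4 of them in the capitals. Over the whole spliced transcripts, stretches of 50 bases that also occur in another Scn or Hcn gene made up 8.53% of the positions of *Scn3a* and 5.67% of those of *Scn1a*, and none of those of *Scn8a*, *Scn2b*, *Scn3b*, *Scn4b*, *Hcn2* or *Hcn4*.

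Reads from such stretches cannot be assigned to 1 gene by their sequence alone, and how reads with several alignments were counted is not given in the sources used here, so that the counts of *Scn1a* and *Scn3a* are uncertain by the share of such reads. Most of the positions counted for these 2 genes are intronic, since exons make up 10.1% of the interval of *Scn1a* and 8.66% of that of *Scn3a*. This is a share of positions and not of reads. Reads were denser on an exonic stretch at the end of *Scn1a* (909 per kb) than on an intronic stretch before its counted start (11.3 per kb).

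Each value is the number of reads over the whole genomic interval of 1 transcript, introns included and both strands together. In GENCODE M21, which may differ from the annotation that was counted, the intervals were chr2:66270784-66351195 for *Scn1a*, chr2:65457118-65567492 for *Scn3a*, chr15:100870683-101045929 for *Scn8a*, chr9:45117881-45130068 for *Scn2b*, chr9:40269217-40291618 for *Scn3b*, chr9:45138395-45154152 for *Scn4b*, chr10:79716634-79736108 for *Hcn2* and chr9:58823412-58863175 for *Hcn4*. The interval of *Scn2b* lies whole within that of *Gm10684*, a lincRNA of the opposite strand, and the interval of *Gm10684* had a mean of 8879 reads against 8848 for *Scn2b*, so that reads of the pair cannot be told apart. *Gm13595*, an antisense gene inside *Scn3a*, had a mean of 68.5 reads against 2865 for *Scn3a*. *Gm47266* shares 630 bases with *Scn3b* and was not analysed here. No other annotated gene overlapped a member. Values are given as normalized counts, that is, counts scaled to the mean of the 8 TMM-adjusted library sizes.

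The 8 libraries held 54684016 to 58003814 counts on genes and no pair of libraries of a group agreed within sampling noise. *Fezf2*, the targeted gene, had 688, 767, 735 and 702 normalized counts in control libraries 1 to 4 and 621, 583, 568 and 592 in *Fezf2 shRNA* libraries 1 to 4. The groups did not overlap. The level with *Fezf2 shRNA* was 81.8% of control, a log2 fold change of -0.29 with a standard error of 0.0781 and an adjusted p of 0.0824 (edgeR, quasi-likelihood F-test, Benjamini-Hochberg), which did not pass the threshold of an adjusted p of 0.05 and an absolute log2 fold change of 0.2. DESeq2 placed it past the threshold (adjusted p = 0.0256), and with a gene-length offset in the edgeR fit the value was -0.18 (adjusted p = 0.446). Over all genes, 208 of 9959 tested (2.09%) passed with edgeR, 195 of them higher (1.96%) and 13 lower (0.131%) with *Fezf2 shRNA*. The median log2 fold change was -0.03, and it depended on the genomic span of the gene, from -0.12 for genes under 10 kb to 0.29 for genes of 300 kb or more.

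On the scale of CPM per kb of genomic span, the levels of the members spread widely. *Scn2b* was highest, with a mean of 12.9 over the 8 libraries (range 10.4 to 14.3), and this level includes any reads of *Gm10684* from the same interval. *Scn4b* (2.85), *Scn1a* (2.79), *Hcn2* (2.33), *Scn8a* (2.03) and *Scn3b* (1.72) followed, and the ranges over the libraries of each neighbouring pair among these 5 overlapped, so that their order is not resolved between neighbours. *Scn3a* had 0.461 (range 0.425 to 0.51), below all libraries of *Scn3b*, and *Hcn4* had 0.0309 (range 0.0149 to 0.047), below all libraries of *Scn3a*. These levels are per length of the interval and not per length of mRNA, so a gene with long introns has a lower value at the same amount of mRNA.

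**Figure D1:**
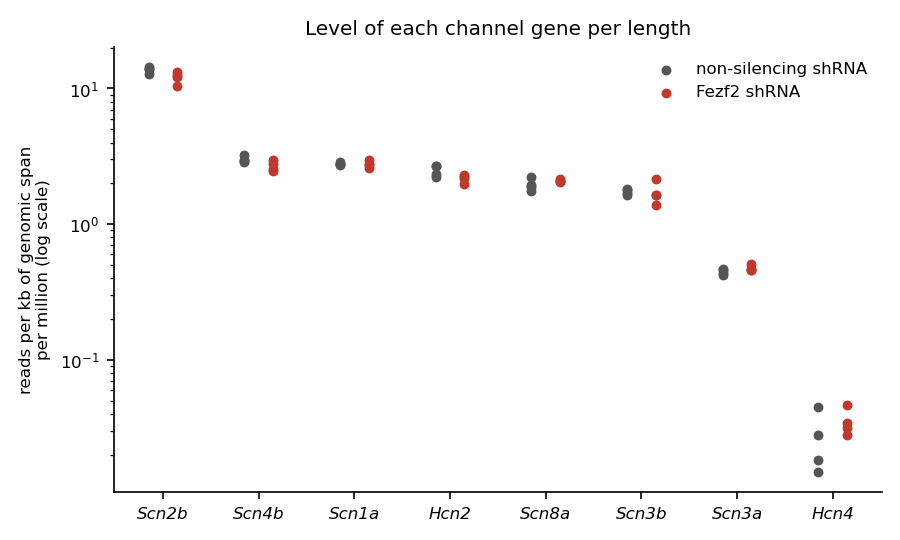
CPM per kb of genomic span (log scale) of each of the 8 members, 1 point per library, grey for *non-silencing shRNA* and red for *Fezf2 shRNA*. *Scn2b* stands above the others (range 10.4 to 14.3), *Scn4b*, *Scn1a*, *Hcn2*, *Scn8a* and *Scn3b* overlap as neighbours, and *Scn3a* and *Hcn4* lie below them.

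No member differed between the treatments past the threshold. Of the 8 members, 7 passed the filter on low values (a minimum of 4 libraries above 8 CPM), and 0 of these 7 were called by edgeR, against 2.09% of all genes tested. Of the 7, 2 had an unadjusted p under 0.05, both lower with *Fezf2 shRNA*, against 19.6% of all genes tested in either direction and 7.73% in that direction. DESeq2 also called 0 of the 7, against 7.37% of all genes called with its prior and 7.55% without it. With its prior, 2 of the 7 had an unadjusted p under 0.05 in DESeq2, and the share of all genes at that limit was not counted. The log2 fold changes lay between -0.19 and 0.10 with a median of -0.02, beside -0.03 over all genes tested, 2 above 0 and 5 below. The groups overlapped for each of the 7. Over all genes tested 11.8% had groups that did not overlap, and 0 of 7 is near that share. The 95% intervals of the 7 log2 fold changes all lay within 0.369 of 0. In bulk tissue, fewer cells of a type and less RNA per cell cannot be told apart, and untransduced cells are part of every value.

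**Figure D2:**
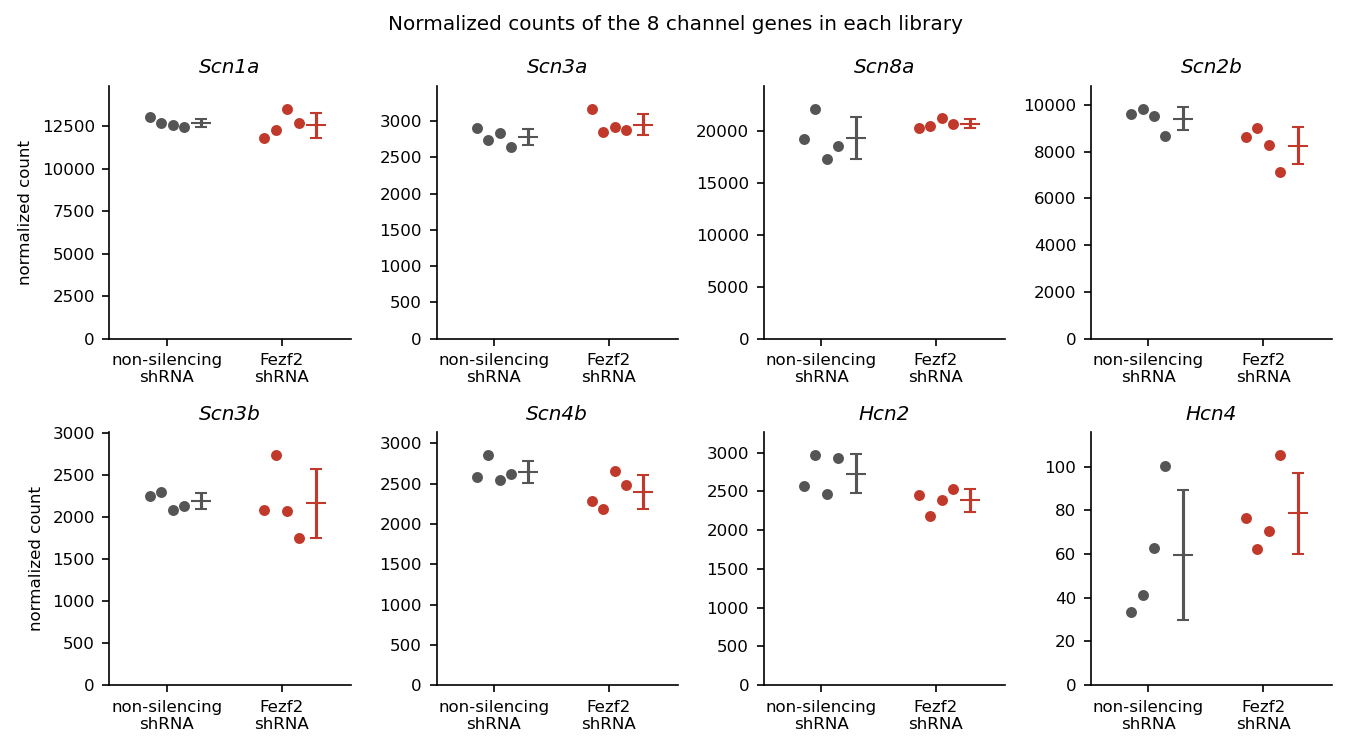
Normalized counts of each member in the 4 *non-silencing shRNA* libraries (grey) and the 4 *Fezf2 shRNA* libraries (red), with the mean and SD of each group (n = 4) beside the points and axes that start at 0. The points of both groups overlap in every panel, for *Scn1a* at 11785 to 13507 with *Fezf2 shRNA* and 12473 to 13032 in control.

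Among the 3 pore-forming members, *Scn8a* had the most reads. In control libraries 1 to 4 it had 19236, 22137, 17352 and 18553 normalized counts, a mean of 19320 ± 2033 (SD, n = 4). In *Fezf2 shRNA* libraries 1 to 4 it had 20348, 20456, 21304 and 20696, a mean of 20701 ± 428 (SD, n = 4). Control library 2 was the highest of all 8 and the other 3 control libraries were below every *Fezf2 shRNA* library. The log2 fold change was 0.10 (95% interval -0.08 to 0.28, adjusted p = 0.5 with edgeR), and the exact two-sided permutation test over the 8 libraries gave p = 0.229. Without control library 2 the value was 0.17 (adjusted p = 0.163 with edgeR) and without control library 3 it was 0.06. The control libraries varied by 10.5% and the *Fezf2 shRNA* libraries by 2.07%, where counting error alone would give 0.707%.

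*Scn1a* had 13032, 12683, 12553 and 12473 normalized counts in control libraries 1 to 4, with a mean of 12685 ± 247 (SD, n = 4). The *Fezf2 shRNA* libraries 1 to 4 had 11785, 12265, 13507 and 12660, with a mean of 12554 ± 729 (SD, n = 4), on both sides of the control range. Its log2 fold change was -0.01 (95% interval -0.15 to 0.12, adjusted p = 0.911 with edgeR), so that a change beyond 0.9-fold or 1.09-fold lay outside the interval.

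*Scn3a*, the gene of the channel that is highest before birth, was the lowest alpha member per length, with 2901, 2741, 2839 and 2640 normalized counts in control libraries 1 to 4 (mean 2780 ± 114, SD, n = 4). With *Fezf2 shRNA*, libraries 1 to 4 had 3167, 2852, 2915 and 2873 (mean 2952 ± 146, SD, n = 4). *Fezf2 shRNA* library 1 was the highest, and control library 1 lay among the remaining *Fezf2 shRNA* libraries. Its log2 fold change of 0.09 (95% interval -0.05 to 0.22, adjusted p = 0.437 with edgeR) did not pass the threshold, and it was 0.05 without *Fezf2 shRNA* library 1.

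Of the beta subunits, *Scn2b*, whose product is linked to the alpha subunit by a disulfide bond, had 9627, 9834, 9543 and 8696 normalized counts in control libraries 1 to 4 and 8619, 9004, 8301 and 7133 in *Fezf2 shRNA* libraries 1 to 4. The means were 9425 ± 501 and 8264 ± 807 (SD, n = 4 each). Only control library 4 and *Fezf2 shRNA* library 2 crossed, the former lying below the latter, and *Fezf2 shRNA* library 4 was the lowest of all. This was a log2 fold change of -0.19 (standard error 0.078, 95% interval -0.36 to -0.02), with an unadjusted p of 0.0338 and an adjusted p of 0.219 in edgeR's test and an exact permutation p of 0.0571. Without *Fezf2 shRNA* library 4 the log2 fold change was -0.125. Any reads of *Gm10684* from this interval are part of these values.

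*Scn4b*, which also forms a disulfide bond with the alpha subunit and is known from the resurgent current of cerebellar neurons, had 2581, 2851, 2543 and 2622 normalized counts in control libraries 1 to 4 (mean 2649 ± 138, SD, n = 4). It had 2282, 2185, 2656 and 2482 in *Fezf2 shRNA* libraries 1 to 4 (mean 2401 ± 210, SD, n = 4). *Fezf2 shRNA* library 3 lay within the control range and the other 3 lay below it. This corresponds to a log2 fold change of -0.14 (95% interval -0.31 to 0.02, adjusted p = 0.306 with edgeR).

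*Scn3b*, whose product binds the alpha subunit without a disulfide bond, had 2244, 2289, 2079 and 2129 normalized counts in control libraries 1 to 4 (mean 2185 ± 97.4, SD, n = 4). It had 2082, 2729, 2071 and 1752 in *Fezf2 shRNA* libraries 1 to 4 (mean 2158 ± 410, SD, n = 4). The highest and the lowest of the 8 libraries were both *Fezf2 shRNA* libraries, and the variation within this group, 19%, was the largest among the tested members, where counting error would give 2.15%. Between the means, the log2 fold change was -0.02 (95% interval -0.27 to 0.24, adjusted p = 0.948 with edgeR).

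*Hcn2* had 2571, 2964, 2460 and 2927 normalized counts in control libraries 1 to 4 (mean 2730 ± 253, SD, n = 4). It had 2451, 2177, 2386 and 2527 in *Fezf2 shRNA* libraries 1 to 4 (mean 2385 ± 151, SD, n = 4). Control libraries 2 and 4 were the highest, and control library 3 fell below *Fezf2 shRNA* library 4. *Hcn2* had a log2 fold change of -0.19 (standard error 0.079, 95% interval -0.37 to -0.02), with an unadjusted p of 0.0318, an adjusted p of 0.215 in edgeR's test and an exact permutation p of 0.0571. The *Fezf2 shRNA* mean was 87.4% of control, and the interval runs from 0.774-fold to 0.986-fold.

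*Hcn4* had few reads and did not pass the filter. Its counts as deposited were 34, 40, 64 and 103 in control libraries 1 to 4 and 76, 62, 71 and 103 in *Fezf2 shRNA* libraries 1 to 4, so that one library of each group reached the same count. With a filter of more than 1 CPM, edgeR gave a log2 fold change of 0.40 (95% interval -0.31 to 1.12, adjusted p = 0.555). The control libraries varied by 50.2% against 12% from counting error, and the interval runs from 0.808-fold to 2.17-fold, so that the spread between these libraries does not exclude changes within that range.

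**Figure D3:**
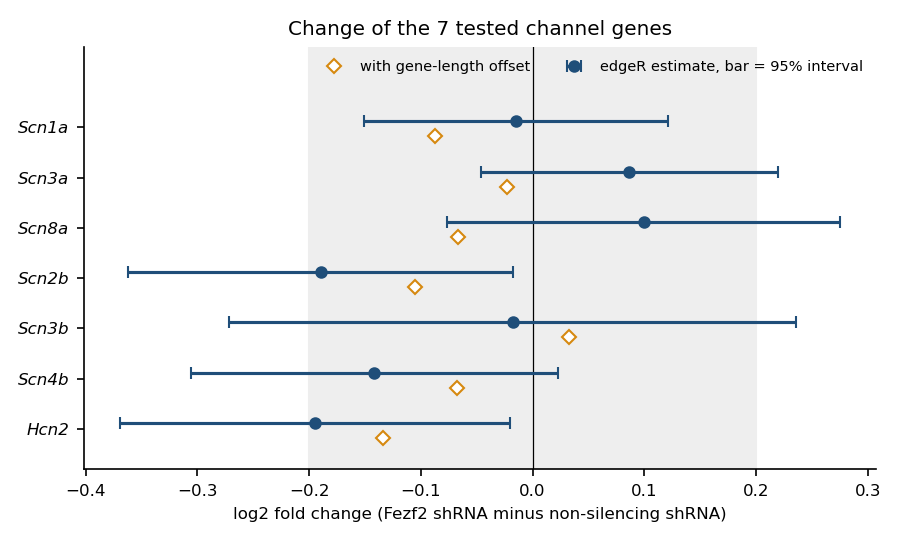
Log2 fold change of the 7 tested members (*Fezf2 shRNA* minus *non-silencing shRNA*) from edgeR with its 95% interval (blue), and the estimate with an offset for gene length (orange diamonds). Grey marks log2 fold changes between -0.2 and 0.2. All 7 estimates lie within it, and *Scn3a*, *Scn8a* and *Scn3b* change sign with the offset.

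Libraries did not deviate in the same way for all members. Control library 2 was highest for *Scn8a*, *Scn2b*, *Scn4b* and *Hcn2*, by 0.15 to 0.22 on the log2 scale above the mean over the 8 libraries. *Fezf2 shRNA* library 2 was highest for *Scn3b*, by 0.34, and lowest for *Scn4b* and *Hcn2*, by -0.20 and -0.23. *Fezf2 shRNA* library 4 was lowest for *Scn2b* and *Scn3b*, by -0.30 for each. Each of the 7 tested members varied between libraries by more than its counting error, which was at most 2.15%.

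The fold changes of the members followed the order of their genomic spans in part. *Scn8a* (175 kb) and *Scn3a* (110 kb) had the highest values and *Scn2b* (12.2 kb), *Scn4b* (15.8 kb) and *Hcn2* (19.5 kb) the lowest, and over the 7 members Spearman's rho between span and log2 fold change was 0.89, a description of 7 genes measured in the same libraries. Among the 1297 tested genes of 100 to 300 kb the quartiles of the log2 fold change were 0.05 and 0.25, and both *Scn3a* and *Scn8a* lay between them. *Scn1a* lay between the quartiles of the 3119 genes of 30 to 100 kb, -0.06 and 0.10. Of the 4 members among the 2983 genes of 10 to 30 kb, where the quartiles were -0.14 and 0.00, *Scn3b* lay between them and *Scn2b*, *Scn4b* and *Hcn2* lay below the lower one. With a per-library offset for gene length in the fit, the log2 fold changes became -0.13 for *Hcn2*, -0.11 for *Scn2b*, -0.07 for *Scn4b*, 0.03 for *Scn3b*, -0.09 for *Scn1a*, -0.02 for *Scn3a* and -0.07 for *Scn8a*, with adjusted p values of 0.592 to 0.945 in edgeR's test, and 2 genes of the whole table remained past the threshold (0.0201%).

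**Figure D4:**
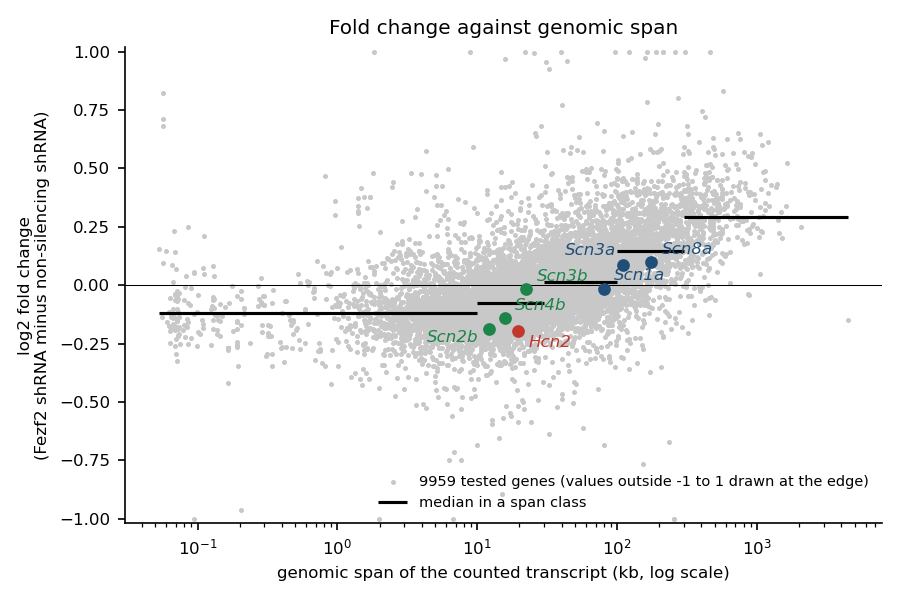
Log2 fold change (*Fezf2 shRNA* minus *non-silencing shRNA*) of the 9959 tested genes against genomic span in kb (log scale), with the 7 tested members in colour (blue alpha subunits, green beta subunits, red HCN) and the median of each span class as a black line. The medians run from -0.12 under 10 kb to 0.29 at 300 kb or more, and *Scn3a* and *Scn8a* lie close below the line of their class.

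Because the transcripts of a gene differ in their ends, reads on single parts of 2 members could be separated. *Scn8a* is listed with 2 start sites in the RefSeq promoter table (GRCm38.p6), 65626 bases apart. Whether transcription began at these sites in the samples was not tested. The 250 bases before each are shown because the reads between them differed between the treatments, with CG dinucleotides in capitals. The first window is chr15:100870395-100870644 and the second chr15:100936021-100936270, both on the plus strand.
Scn8a first start: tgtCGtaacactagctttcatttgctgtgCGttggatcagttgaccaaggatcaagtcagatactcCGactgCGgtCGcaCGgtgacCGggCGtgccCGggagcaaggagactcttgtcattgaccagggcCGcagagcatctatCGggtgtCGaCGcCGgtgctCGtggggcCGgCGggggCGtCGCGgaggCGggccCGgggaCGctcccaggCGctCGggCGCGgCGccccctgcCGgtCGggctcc
Scn8a second start: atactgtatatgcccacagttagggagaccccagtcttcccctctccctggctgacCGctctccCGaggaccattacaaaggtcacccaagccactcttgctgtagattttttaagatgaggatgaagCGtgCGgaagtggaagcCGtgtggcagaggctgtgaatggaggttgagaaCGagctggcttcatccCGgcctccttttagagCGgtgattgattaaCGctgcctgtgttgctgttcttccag

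The first window holds 30 CG, a number reached by 5.94% of the 32851 promoter windows of this length, and the second holds 9, reached by 40.3%. Neither holds TATAAA on either strand, which 12.4% of the windows do. The second window is also the end of the intronic part described next, and its last bases are ag, as in introns. Whether it acts as a promoter was not tested.

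The part of *Scn8a* between these starts, chr15:100870683-100936270, is 65.6 kb long and 1.08% exonic, and no other annotated gene overlaps it. It had 548, 905, 948 and 696 normalized counts in control libraries 1 to 4 and 1034, 1152, 1276 and 1189 in *Fezf2 shRNA* libraries 1 to 4. Every *Fezf2 shRNA* library was above every control library. The share of all intronic parts with groups separated in this way was not counted, so this separation is not shown to be particular to *Scn8a*. The means were 774 ± 187 and 1163 ± 100 (SD, n = 4 each), and the exact two-sided permutation test gave p = 0.0286, the smallest value that 4 against 4 libraries allow. In an edgeR fit across 1627 intronic parts, 1 per gene, the log2 fold change was 0.59 (standard error 0.155, 95% interval 0.25 to 0.93, adjusted p = 0.0274), past the threshold. In that fit 35.0% of all intronic parts had an unadjusted p under 0.05, 18.1% of all intronic parts were called higher with *Fezf2 shRNA*, and 18.2% of the 571 parts of 30 to 100 kb, so that a call there was frequent. The median log2 fold change of the 1627 parts was 0.19 with quartiles 0.03 and 0.35, and 4.0% of the parts had a value as high as that of *Scn8a* or higher. The call was lost when control library 1 or 4 or *Fezf2 shRNA* library 3 or 4 was left out (adjusted p = 0.0557 to 0.0782, log2 fold change 0.45 to 0.58). This part held 4.83% of the reads of *Scn8a*, and the log2 difference of the remaining reads was 0.08.

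For *Scn1a* both kinds of part could be measured. The intronic part, chr2:66351196-66410064, lies before the start of the counted transcript and is 0.398% exonic, and Gm13630, an annotated gene of the opposite strand, reaches into its far end. It had 746, 455, 797 and 480 normalized counts in control libraries 1 to 4 and 936, 500, 598 and 811 in *Fezf2 shRNA* libraries 1 to 4, with overlapping groups and a log2 fold change of 0.20 (95% interval -0.29 to 0.68, adjusted p = 0.561 in the edgeR fit across parts). Leaving out 1 library gave 0.038 (without *Fezf2 shRNA* library 1) to 0.34 (without control library 3). The exonic part, chr2:66270784-66272884 at the end of the gene, had 2257, 1812, 1887 and 2063 in control libraries 1 to 4 and 1889, 1663, 1801 and 1892 in *Fezf2 shRNA* libraries 1 to 4, with a log2 fold change of -0.15 (95% interval -0.33 to 0.03, adjusted p = 0.545 in the edgeR fit across parts), and -0.085 without control library 1. The log2 ratio of intronic to exonic reads was -1.73 ± 0.392 in control and -1.39 ± 0.33 with *Fezf2 shRNA* (SD, n = 4 each), and the exact permutation p of the difference was 0.2. Across all exonic parts 1 of 1956 (0.0511%) was called and 10.3% had an unadjusted p under 0.05, and for intronic parts 18.4% were called in either direction. Per kb, the exonic part of *Scn1a* had 909 reads and the intronic part 11.3.

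**Figure D5:**
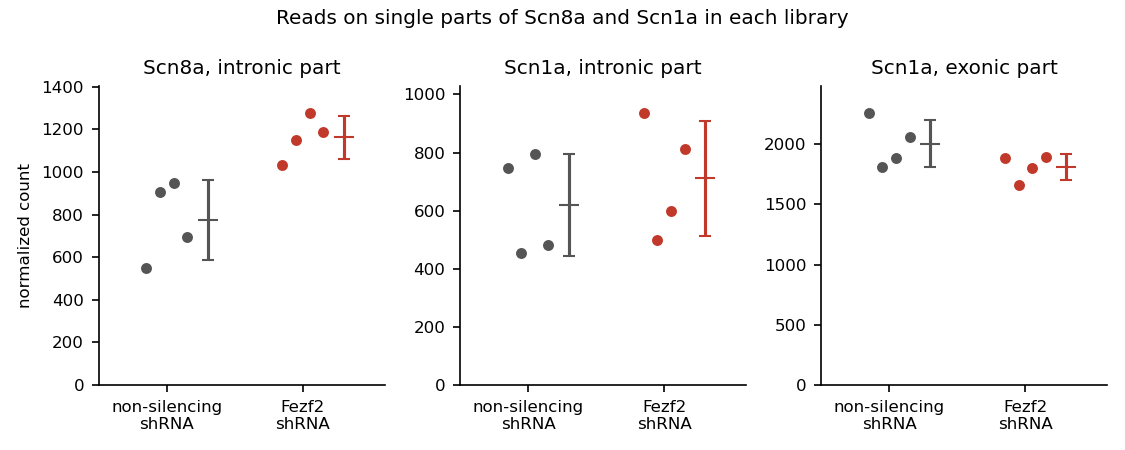
Normalized counts on the intronic part of *Scn8a* and on the intronic and exonic parts of *Scn1a*, 1 point per library, with the mean and SD of each group (n = 4). Of the parts shown, only that of *Scn8a* has groups that do not overlap (548 to 948 in control, 1034 to 1276 with *Fezf2 shRNA*).

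The genes whose log2 CPM followed a member most closely over the 8 libraries, leaving out genes that overlap a member, are given as a description, with Pearson's r over 8 libraries that share depth and dissection. They included *Fam217b* for *Scn8a* (r = 0.99), *Syt16* and *Ralyl* for *Scn3a* (0.95 and 0.94), and *Tmem87b* and *Sec23b* for *Scn1a* (0.95 and 0.94). For the beta subunits they were *Eif4h* and *Ahcy* for *Scn2b* (0.98 and 0.97), *Cplx1*, a regulator of synaptic vesicle fusion, and *Ednrb* for *Scn4b* (0.95 for both), and *Ubb* and *Eea1* for *Scn3b* (0.96 for both). They were *Abca2*, a lipid transporter abundant in oligodendrocytes, and *Gna12* for *Hcn2* (0.95 and 0.94), and *Tti1* and *Parl* for *Hcn4* (0.97 and 0.96). They were the closest of 9959 genes searched, and none of the genes named here passed the threshold with edgeR.

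The other genes of the pathway were read from 4 lists of 38 genes, of which 31 were tested. None of the 31 passed the threshold with edgeR, against 2.09% of all genes tested, and 20 had a log2 fold change above 0 and 11 below. An unadjusted p under 0.05 was found for 6 of the 31, a share near the 19.6% of all genes tested, and DESeq2 with its prior called 2 of the 31, a share near its 7.37% of all genes. The median was 0.05, and -0.05 with the gene-length offset, so that the direction of these lists depends on the treatment of gene length.

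Of the 10 other sodium and HCN channel genes, 4 were tested, with a median log2 fold change of 0.04, and 0 were called in either direction. *Scn9a*, the gene of Nav1.7, had the highest value (0.18, adjusted p = 0.347 with edgeR, and 0.11 without control library 2). The members of this list that did not pass the filter are not described.

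Of the 15 channel partner and axon initial segment genes, 14 were tested, 10 above 0 and 4 below, with a median of 0.06. *Fgf14*, which binds the tail of sodium channels, had the highest value (0.29, adjusted p = 0.237 with edgeR). It was 0.48 and past the threshold when the widest transcript was counted (adjusted p = 0.0327 with edgeR), and 0.15 without *Fezf2 shRNA* library 1. *Calm3*, one of the calmodulin genes, had the lowest value (-0.13, adjusted p = 0.376). All 4 genes of the sodium leak channel complex were above 0, with a median of 0.15, and -0.04 with the gene-length offset. These genes span 182 to 565 kb. Over all tested genes the median was 0.15 at 100 to 300 kb and 0.29 at 300 kb or more. *Fam155a*, an auxiliary subunit of that complex, had 29640 to 34360 normalized counts in control and 36280 to 46750 with *Fezf2 shRNA*. Its log2 fold change of 0.41 ± 0.0938 (standard error) had an adjusted p of 0.0515 with edgeR, just outside the threshold. It passed with DESeq2, with the widest transcript counted (adjusted p = 0.0492 with edgeR), and without control library 2 or *Fezf2 shRNA* library 2 (adjusted p = 0.0467 and 0.0192 with edgeR). It spans 565 kb, and with the gene-length offset its value was 0.10. Of the 9 sodium pump and sodium/calcium exchanger genes, all tested, 4 were above 0 and 5 below with a median of 0.00. The highest value was that of *Slc8a3*, an exchanger gene (0.10, adjusted p = 0.376 with edgeR).

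Markers of cell types that the dissection could hold were read beside the members. The 6 general neuronal markers were present in every library (summed 193220 to 218520 normalized counts in control and 202100 to 212290 with *Fezf2 shRNA*). The 7 oligodendrocyte markers all had log2 fold changes below 0 (median -0.55), none past the threshold with edgeR, with summed counts of 63046 to 114300 in control and 46845 to 76875 with *Fezf2 shRNA*. Control libraries 4 and 2, the highest for these markers, were also the highest for *Hcn2*, and *Fezf2 shRNA* library 2 was the lowest for both. Other libraries went the other way, as *Fezf2 shRNA* libraries 3 and 4 were above control library 1 for the markers (76676 and 76875 against 63046). For *Hcn2* these libraries were below control library 1 (2386 and 2527 against 2571). The 8 striatal markers, of which 4 were tested, summed to 3789 to 4588 in control and 3225 to 4461 with *Fezf2 shRNA*. The thalamic list, of which only *Rora* was tested (0.50, adjusted p = 0.0592 with edgeR, 0.0437 with the replicate block, span 734 kb), summed to 12584 to 17705 in control and 17947 to 22833 with *Fezf2 shRNA*. These sums were mostly *Rora*, with means of 14170 in control and 20000 with *Fezf2 shRNA*, and its value was 0.16 with the gene-length offset. The other markers of this list had group means of 142 to 189, and the groups overlapped for each of them. One of the 8 interneuron markers, *Kcnc2*, was called (0.27, adjusted p = 0.0309 with edgeR, span 195 kb, and 0.09 with the gene-length offset, where the call was lost), and their sums overlapped, at 27102 to 30008 and 27954 to 30143. No gene of the remaining lists, for layer 5 and 6 neurons, oligodendrocyte precursors, astrocytes, microglia and endothelial cells, was called, and their summed counts overlapped between the groups. Of the 5 tested layer 5 and 6 markers, 1 was above 0 and 4 below, with a median of -0.16, and -0.24 with the gene-length offset. Their smallest adjusted p was 0.125 with edgeR, and 1 of the 5 had groups that did not overlap, against 11.8% of all genes tested. The part of any of these cell types in the values of the members was not tested.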

How the data were processed

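Total RNA-seq of 8 M1 samples was used (4 per treatment, by sample title). The authors mapped paired-end reads to mm10 with TopHat2 and counted them over Ensembl transcript intervals with BEDTools multiCov, and the deposited counts are raw. A second deposited table holds the authors' own comparison (base mean, fold change, standard error, Wald statistic and p-values) and was not used.

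Transcripts were mapped to genes with GENCODE M21 (91320 of 94647 transcripts, the rest holding 1.82% of counts), and each of 38031 genes was represented by its transcript of lowest Ensembl number. The 9959 genes above 8 CPM in 4 libraries or more were tested with edgeR 4.0.16 (TMM, quasi-likelihood test, Benjamini-Hochberg adjustment, R 4.3.3). Standard errors are the log2 fold change divided by the square root of F. Alternatives included DESeq2 1.42.0. Parts of genes are differences of 2 transcript intervals that share an end (within 300 bases), intronic at up to 5% and exonic at 80% or more exonic bases, with a mean of 100 reads. The main test of parts was the exact permutation test. The edgeR fit across parts, contiguous parts and leaving out 993 transcripts with identical counts but different ends, which removed the 3′ end of *Scn8a* and shows that some counted intervals differ from GENCODE M21, were chosen after seeing the data. The gene-level edgeR and DESeq2 fits and the gene-length offset were tested on simulated data, and the parts and the likeness search were not. Members and lists were chosen with earlier results of these data known. Genes named are the members, *Fezf2*, the highest and lowest of each pathway list, the 2 nearest in likeness, and overlapping genes, while *Kcnc2* and *Rora* were named after their values were seen. Some genes and sequences that these rules would name are not reported here. The total counts per library make counting error small for 7 members, and intervals cover replicate spread.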

Additional observations from a re-analysis of the deposited data

How the results depend on the processing

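The number of members past the threshold was 0 under each of the 21 alternatives run. Over all genes the count of 208 moved to 534 at an adjusted p of 0.1, 84 with a filter of more than 1 CPM, 103 with no filter, 734 and 752 with DESeq2 with and without its prior, 90 with the replicate block, and 2 with the gene-length offset alone or with the block. Leaving out 1 library gave 0 (without control 1), 4 (control 4), 130 (control 3) or 368 (control 2), and 13, 269, 9 and 17 without *Fezf2 shRNA* libraries 1 to 4. The count over all list genes, 1 (*Kcnc2*), became 5 at an adjusted p of 0.1, 7 with DESeq2 of either kind, 4 with the widest transcript and 3 with the replicate block, where *Kcnc2* was not among them (adjusted p = 0.0627 with edgeR). It was 0 with library totals, with a filter of more than 1 CPM, with no filter, and with the gene-length offset with or without the block, and 0 to 3 without 1 library. The call of *Kcnc2* was lost without control library 1, 3 or 4 or *Fezf2 shRNA* library 1, 3 or 4. Of the member parts 1 was called, and leaving out 1 library gave 0 to 1. *Rora* passed with DESeq2, with the replicate block, and without control library 3 or *Fezf2 shRNA* library 2 (adjusted p = 0.0418 and 0.042 with edgeR). The causes were not tested.

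Values near 0 changed sign: *Scn3a* (-0.0231 and -0.0232), *Scn8a* (-0.0668 and -0.0633) and *Scn3b* (0.0328 and 0.016) with the gene-length offset without and with the block, *Slc8a3* likewise (-0.0334 and -0.0337), and *Scn1a* with the widest transcript (0.0016). Without 1 library, *Scn3b* gave values from -0.15 to 0.0704 and *Scn1a* from -0.0427 to 0.0146. Same-numbered libraries deviated together with correlations of 0.31, 0.09, -0.13 and 0.17, not over 0.1 for every pair, so the samples were not treated as paired. Numbers 1 and 4 correlated best with their own, and these values do not settle a partial pairing. *Hcn4* had 12% counting error, above the at most 2.15% of the other members.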
